A study of Mus musculus with 7 samples.

Results

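The nuclear-encoded respiratory chain genes are the 93 nuclear protein-coding genes whose symbol starts with Nduf, Uqcr, Cox4i, Cox5, Cox6, Cox7, Cox8 or Atp5, or is Sdha, Sdhb, Sdhc or Sdhd, out of 21911 nuclear protein-coding genes in the GENCODE M21 annotation (GRCm38). The rule uses gene symbols only and no measured value. By complex they are 36 subunits of complex I and 8 of its assembly factors (Ndufaf), 4 of complex II, 8 of complex III, 20 of complex IV and 17 of complex V. Ndufa4 and its paralogue Ndufa4l2 were counted with complex IV, where Ndufa4 protein is now placed, and Cox7a2l and Atp5s went by their symbols.

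The respiratory chain moves electrons from NADH and succinate through complexes I to IV to oxygen in the inner mitochondrial membrane and pumps protons as it does so, and complex V (ATP synthase) uses the proton gradient to make ATP. Most of its subunits are encoded in the nucleus, translated in the cytosol and imported, while a small hydrophobic set is encoded by mitochondrial DNA. Mouse embryonic stem cells rely heavily on glycolysis, but they do carry a working respiratory chain.

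The series sequenced RNA recovered with Ezh2, the histone H3 lysine methyltransferase subunit of Polycomb repressive complex PRC2, from nuclear lysates of untreated embryonic stem cells grown with LIF. Of its 7 libraries, 5 used an anti-Ezh2 antibody on cells of strain 129X(M.castaneusX129) with no Ezh2 mutation in their labels, 1 used the Ezh2 antibody on Ezh2 null cells of strain M.musculus, and 1 used IgG on 129X(M.castaneusX129) cells. The 5 include 1 labelled as a technical and 1 as a biological replicate, and 2 that sequence samples of the series more deeply over 2 lanes each, of which 1 is also labelled a biological replicate. The values below come from 1 deposited table of read sequences with counts, which neither a header nor a label ties to a library, so there are no replicates and no comparison with IgG or with Ezh2 null cells, and no value is an enrichment. The 2 strain backgrounds can differ from the reference at single bases, which lowers the number of matching reads.

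The table held 34072479 reads, of which 31529044 were long enough to search. A read is called sense when its RNA runs in the direction of the gene, and RPKM is sense reads per kb of the gene's merged exons and 1000000 searched reads. Intervals are exact 95% intervals (Poisson for counts, Clopper-Pearson for shares). They cover counting error only, since copies made by PCR are counted like separate molecules. In bulk RNA of this kind, fewer cells that carry an mRNA and less of it per cell cannot be told apart. Embryonic stem cell markers were present, 8 of 10 of them with at least 50 sense reads and with a median RPKM of 4.645. Fibroblast markers were present as well, 8 of 8 with at least 50 sense reads and a median RPKM of 15.98, led by Fn1 at 39715 sense reads, and their part in the respiratory chain values was not tested. Striated muscle markers were near 0, with 0 of 7 at 50 sense reads and 34 sense reads in all.

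The reads were short and fell at few places of each mRNA, so the places themselves are shown first. Each line below gives the RNA sequence, from the GENCODE M21 transcript, where the most sense reads of a member began, with at least 1 example for each complex. Lower case marks the bases under the matched part of the reads, and capitals mark the 6 bases under the leading end of the read, which was left out before matching.
Ndufb9: tcctgattacttttccaagagagaGCAGTG
Ndufb5: gcaaggaagtggacttaactttttGGCCCA
Ndufaf2: gaacagaaaagaggtagactatgaAGCAGG
Sdha: actgaagatgggaagatttatcagCGTGCA
Uqcrh: gctcactggatctggagaccccaaAGAGGA
Uqcrq: tctacctgatctacacatggggcaACCAGG
Cox4i1: ttggcttcactgcgctcgttctgaTTTGGG
Cox6b1: ccaaccagaaccagactaagaactGTTGGC
Cox6b2: ccattcactgtgtcccatcagctgGGTGCA
Atp5b: agaagccgtggcaaaggctgataaGCTGGC

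In 9 of these 10 the stretch lies in coding sequence of the principal transcript, and in Ndufb5 it lies in a retained-intron isoform. In Uqcrh and Cox6b2 the transcript stretch runs across an exon-exon junction, but its lower-case bases lie in 1 exon. Only the 6 capitals, left out before matching, lie beyond the junction. They matched the spliced transcript in full in 8 of 80 reads at Uqcrh and in 0 of 13 at Cox6b2. The Cox6b2 stretch therefore does not show that its reads came from spliced RNA. At Uqcrh the 8 reads matched the spliced sequence across the junction. The remaining reads there cannot be told apart, since low shares of full matches also occurred at stretches without a junction. All coordinates here and below are GRCm38. Ndufb9 lies at chr15:58937402-58937431 (plus strand, 41 reads) and Ndufb5 at chr3:32739803-32739832 (plus, 132 reads). Ndufaf2 lies at chr13:108091557-108091586 (minus, 72 reads) and Sdha at chr13:74339152-74339181 (minus, 58 reads). Uqcrh lies within chr4:116070756-116074943 (minus, 80 reads, intron included) and Uqcrq at chr11:53429109-53429138 (minus, 77 reads). Cox4i1 lies at chr8:120673311-120673340 (plus, 35 reads), Cox6b1 at chr7:30624512-30624541 (minus, 14 reads), Cox6b2 within chr7:4751971-4752085 (minus, 13 reads, intron included) and Atp5b at chr10:128090071-128090100 (plus, 81 reads). The leading 6 bases of the reads often departed from the transcript, and how often differed from place to place. They matched it in full in 35 of 35 reads at the Cox4i1 position, in 129 of 132 at Ndufb5 and in 60 of 72 at Ndufaf2, but in 1 of 58 at Sdha and in 0 of 41 at Ndufb9.

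Respiratory chain mRNAs were read more often than most coding genes, at low levels in nearly all cases. Together the 93 genes had 32246 sense reads (31895 to 32600), or 0.5887% of the sense reads of nuclear protein-coding genes, and 21805 of them belonged to Atp5a1. Without Atp5a1 the share was 0.1906%. The count reached at least 50 sense reads in 40 of the 93 (43.0%), against 29.1% of all nuclear protein-coding genes, and 46 more had 1 to 49. Just under that minimum lay Ndufa2 with 49 and Cox6b2 with 46 sense reads, and just above it Atp5l with 52 and Atp5d and Ndufaf4 with 55 each. No sense read was found in 7 members (7.53%), against 27.7% of all coding genes. The median RPKM of the members was 0.6395, against 0.08611 for all coding genes. Of the 93, 78 lay above that overall median and 59 above the upper quartile of 0.442.

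**Figure D1:**
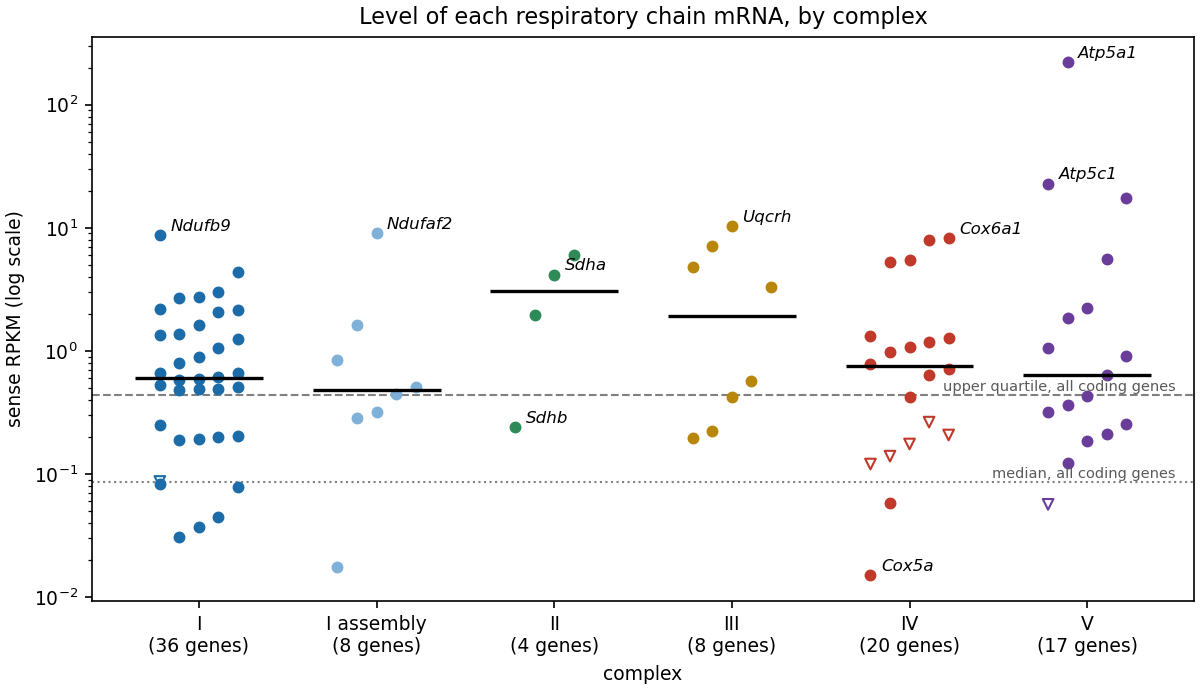
Sense RPKM (log scale) of each of the 93 genes, grouped by complex; filled points are genes with reads, open triangles are genes with no sense read drawn at the RPKM of 3 counts, black bars are group medians, and grey lines mark the median and the upper quartile of all nuclear protein-coding genes. Atp5a1 stands at 220.6, 9.63 times the next gene, Atp5c1 at 22.91, and the medians of complexes II and III (3.063 and 1.94) lie above those of the other groups. The plotted values are per length of merged exons. On the principal transcripts Atp5a1 had 279.5, Ndufaf2 39.53 and Atp5c1 4.57.

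The genes are short, and longer genes had more reads. Their merged exons had a median of 1569 bases, against 3501 for all coding genes. Among genes of up to 1000 bases, 3 of 24 members (12.5%) had at least 50 sense reads, against 2.54% of coding genes. From 1000 to 2000 bases the figures were 16 of 35 (45.7%) against 8.63%, from 2000 to 4000 bases 14 of 23 (60.9%) against 20.5%, and above 4000 bases 7 of 11 (63.6%) against 48.7%. The members' share was higher than that of coding genes in each of the 4 length classes. Across the 93 genes the Spearman correlation of merged exon length with sense reads was 0.402, and with RPKM 0.0424. Over all coding genes the same values were 0.602 and 0.452. These describe genes of 1 pool, which share depth and library, and genes are not independent replicates.

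**Figure D2:**
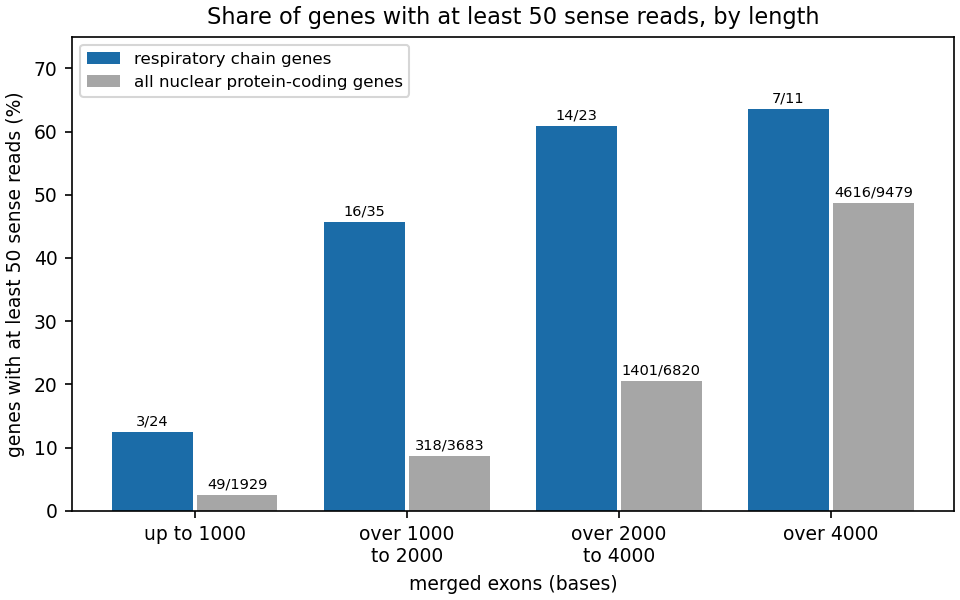
Percentage of genes with at least 50 sense reads (vertical axis) in 4 classes of merged exon length in bases, for the respiratory chain genes (blue) and all nuclear protein-coding genes (grey), with the counts above the bars. The blue bar is the higher one in each class, from 12.5% against 2.54% in the shortest to 63.6% against 48.7% in the longest.

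Complex I, which oxidises NADH, had 2579 sense reads over 36 genes and a median RPKM of 0.6024, with 15 genes at 50 reads or more. Its 7 nuclear core subunits, which carry the flavin and the iron-sulfur clusters or bind ubiquinone, had a median RPKM of 0.6158, close to the 0.5889 of the other 29 subunits. Among the core subunits, Ndufs1, the largest iron-sulfur subunit, had 157 sense reads, Ndufs7 118 and Ndufv2 93. The core subunits Ndufs3, Ndufs8 and Ndufv1 had 13, 20 and 17. Between Ndufs1 and Ndufs3, joined into 1 enzyme, reads differed 12.1-fold, but their merged exons have 8086 and 2178 bases. Per length they were closer, with RPKM values of 0.6158 and 0.1893, and 10 of the 13 Ndufs3 reads began at 1 position. Among the supernumerary subunits, Ndufb5 had 474 sense reads (432.3 to 518.7), Ndufb9 283 (251.0 to 318.0) and Ndufa6 249 (219.0 to 281.9). Per length of merged exons Ndufb9 was highest in complex I, with an RPKM of 8.706, followed by Ndufa6 at 4.385 and Ndufb5 at 3.01. On the principal transcripts the first 2 changed places, with 13.28 for Ndufa6 and 12.75 for Ndufb9. At the low end Ndufa3 and Ndufs5 had 1 sense read each.

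The Ndufb5 count was not a count of its mRNA alone. Of its 474 sense reads, 453 lay only on noncoding isoforms, the most used position on the isoform with a retained intron shown above, 11 (2.321%) lay on the principal transcript, and 21 lay in coding sequence of any isoform. The principal transcript of Ndufb5 thus had an RPKM of 0.3233. Ndufs7 was similar, with 105 of 118 sense reads on noncoding isoforms, all within 6 start positions.

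The assembly factors build complex I without staying in it. The 8 Ndufaf genes had 1155 sense reads and a median RPKM of 0.4803. Ndufaf2, a chaperone of late assembly, had 845 of these (789.0 to 903.9). Its RPKM was 9.0, or 39.53 on its principal transcript. All 845 lay in coding sequence, 715 of them in a stretch of 127 bases with 61 start positions. Ndufaf7, a methyltransferase, had 181, Ndufaf4 55 and Ndufaf8 22. In Ndufaf4, 52 of the 55 reads began at 1 position, and in Ndufaf6 all 20 did.

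Complex II, succinate dehydrogenase, also an enzyme of the citric acid cycle, had the highest median RPKM of the groups, 3.063, over its 4 genes. Sdha, the flavoprotein that oxidises succinate, had 543 sense reads (498.3 to 590.7) at 89 start positions, 502 of them in coding sequence. Sdhd and Sdhc, the membrane anchors, had 232 (203.1 to 263.9) and 200 (173.2 to 229.7). In both anchors every sense read lay downstream of the coding sequence, in the 3′ untranslated region. Sdhb, the iron-sulfur subunit, had 17 (9.903 to 27.22). The RPKM values were 5.977 for Sdhd, 4.174 for Sdha, 1.952 for Sdhc and 0.2408 for Sdhb, so 1 of the 4 subunits stood apart below the others.

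Complex III, the cytochrome bc1 complex, had 1051 sense reads over 8 genes and a median RPKM of 1.94. The small subunits led. Uqcrh, the hinge protein, had 401 sense reads (362.7 to 442.2) and an RPKM of 10.28, and Uqcrb, a small subunit on the matrix side, had 198 and 7.169. Uqcrq, a subunit next to cytochrome b, had 277 sense reads and an RPKM of 4.798, and Uqcr10 had 61 and 3.313. The core proteins Uqcrc1 and Uqcrc2, with 74 and 18 sense reads, and the Rieske iron-sulfur protein Uqcrfs1, with 18, had RPKM values of 0.5676, 0.2237 and 0.4189. All 3 lay below the small subunits just named, while the small subunit Uqcr11 had 4 sense reads and an RPKM of 0.1979. For Uqcrb a further 983 sense reads matched it and up to 4 other genes equally well, mainly the processed pseudogene Gm16089, and were left out.

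Complex IV, cytochrome c oxidase, had 1316 sense reads over 20 genes and a median RPKM of 0.7499. Cox7b led with 304 sense reads (270.8 to 340.2), ahead of Cox4i1, a regulatory subunit that binds ATP, with 259 (228.4 to 292.5), Ndufa4 with 238 (208.7 to 270.2) and Cox6a1 with 183 (157.4 to 211.5). Per length Cox6a1 and Cox7b had RPKM values of 8.268 (7.113 to 9.557) and 7.942 (7.074 to 8.887), which overlap, and with all placements counted Cox7b lay above Cox6a1, at 20.4 against 10.75. Ndufa4 had 5.466 and Cox4i1 5.3. On the principal transcripts the order differed, with 12.37 for Ndufa4, 10.49 for Cox4i1, 10.16 for Cox6a1 and 9.632 for Cox7b. Cox5a, a subunit on the matrix side, had 1 sense read (0.02532 to 5.572), and its partner Cox5b had 32.

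Several complex IV subunits exist as isoforms made in different tissues, and the isoforms of muscle, lung and testis were mostly at 0. Cox6a2 (heart and skeletal muscle) had no sense read against 183 of Cox6a1, Cox4i2 (lung) none against 259 of Cox4i1, and Cox7b2 (testis) none against 304 of Cox7b. Cox8b (heart) and Cox8c (testis) had none against 14 of Cox8a. For a count of 0 a limit of 3 counts was used. It is an RPKM of 0.1399 for Cox6a2, 0.1207 for Cox4i2, 0.1756 for Cox7b2, 0.2643 for Cox8b and 0.2078 for Cox8c. The exact interval used for the other counts reaches slightly higher at 0, to 3.689 counts. In these 5 genes every 34-base window of their exons could have been assigned, and no read of several genes touched them. All 5 are short, however. Coding genes with merged exons of up to 1000 bases, their length class, had a median of 0 sense reads, and members of that class 14. For the Cox8 genes the interval is wide, and Cox8b could make up as much as 23.16% of its pair with Cox8a. By reads of 1 gene, the Cox6b pair went the other way. Cox6b2, known as the testis isoform, had 46 sense reads at 11 start positions and Cox6b1 had 22 at 5, so that Cox6b2 made up 67.65% of the pair (55.21 to 78.49). Per length the levels were closer, with RPKM values of 1.317 for Cox6b2 and 0.9855 for Cox6b1. Their counting intervals overlap per length, although those of the counts, 33.68 to 61.36 and 13.79 to 33.31, do not. With all placements counted the order was reversed, at 1.317 for Cox6b2 and 1.389 for Cox6b1, which shared 9 further reads with other genes. Cox7a1, the heart and muscle isoform, had 18 sense reads against 35 of Cox7a2, and RPKM values of 1.067 and 1.176, whose counting intervals overlap. Cox7a2l, which takes part in joining complexes III and IV, had 59 and an RPKM of 1.266. Ndufa4l2, induced by low oxygen in other cells, had 2 sense reads against 238 of Ndufa4.

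Complex V held 25153 sense reads, 78.0% of those of all members, with a median RPKM of 0.6322 over 17 genes. The soluble F1 part, which makes ATP, had a median RPKM of 5.532 over its 5 genes, and the other 12 genes had 0.3407. Atp5a1, the alpha subunit of F1, had 21805 sense reads (21520 to 22100) and an RPKM of 220.6, which ranked 26 by reads and 15 by RPKM among the 21911 coding genes. Atp5c1, the gamma subunit that forms the rotating stalk, had 1378 (1306 to 1453), and Atp5b, the catalytic beta subunit, 739 (686.7 to 794.3). The alpha and beta proteins form the F1 ring in equal numbers, and their mRNAs differed 39.9-fold in RPKM, at 220.6 and 5.532. The ratio was 23.3 on the principal transcripts, 23.2 by distinct sequence and 3.59 by start position. Atp5d and Atp5e, the delta and epsilon subunits, had 55 and 35. Outside F1, Atp5mpl, a small membrane proteolipid, led with 669 sense reads (619.3 to 721.7) and an RPKM of 17.44. Of the genes for the proton-carrying c ring, Atp5g3 had 127 sense reads, Atp5g1 19 and Atp5g2 0. Atp5g1 also shared 45400 sense reads with other genes, 630 of them with up to 4, and with all placements counted its RPKM is 293.3, against 1.847 for Atp5g3, so the order of these genes is not settled. The 0 of Atp5g2 is weaker than those of complex IV, since 60.85% of its windows could be assigned and 16 further reads matched it and a pseudogene.

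The high count of Atp5a1 rested on a short stretch. Its sense reads began at 263 positions, the only member with over 100, and 18596 of them (85.28%) at 109 positions within 144 bases of the merged exons. The single most used position held 2971. Of its reads on the principal transcript, 14910 of 21775 (68.47%) crossed an exon-exon junction, where 14.89% of the 34-base windows of that transcript do. By start position 40 of 253 (15.81%) did, close to the share of windows. Coding sequence held 21680 of its reads. In Atp5c1 the reads lay elsewhere: 1210 of 1378 were upstream of the coding sequence of alternative isoforms, the most used position lay in an intron of the principal transcript, and 168 were on the principal transcript itself, an RPKM of 4.57 there. Atp5b was spread over 99 positions, with 81 reads at the highest. Atp5mpl was the other extreme, with 656 of 669 reads at 10 positions within 13 bases around the end of its coding sequence.

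**Figure D3:**
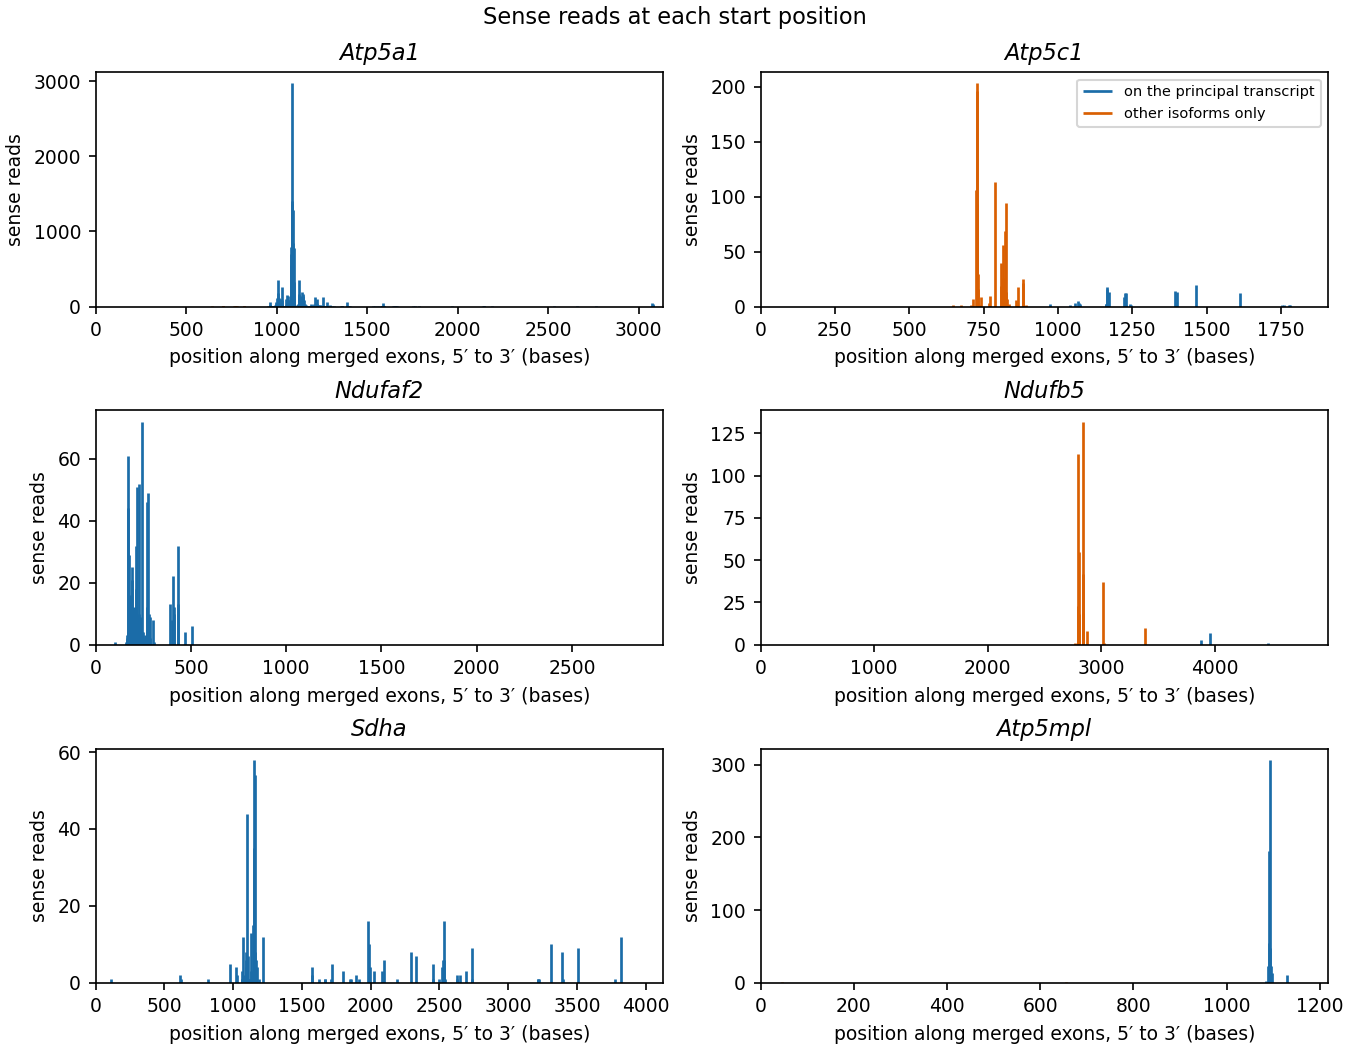
Sense reads (vertical axis, linear, scaled per gene) at each start position along the merged exons in bases, 5′ to 3′, for 6 members; blue lines are positions on the principal transcript and orange lines are positions on other isoforms only. Atp5a1 and Atp5mpl show 1 sharp peak each, Ndufaf2 a cluster near its 5′ end, Sdha several places, and the tallest lines of Atp5c1 and Ndufb5 are orange.

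Few start positions carried the reads of most members. Among the 40 members with at least 50 sense reads, the highest position held a median of 25.87% of a gene's reads, from 8.521% in Ndufaf2 to 94.55% in Ndufaf4, against a median of 21.62% in coding genes with at least 50 reads. Joining positions up to 10 bases apart, the largest group held a median of 47.28% of a gene's reads. Of the 86 members with a read, 23 were read at no more than 5 positions and 8 at only 1. The 36-base and 40-base reads of the table ranked the genes alike, with a Spearman correlation of 0.82 over the 93 genes. Of 829 start positions used by 36-base reads, 496 (59.83%) were also used by 40-base reads. Nothing in the labels or the table says whether the 2 read lengths come from separate libraries.

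**Figure D4:**
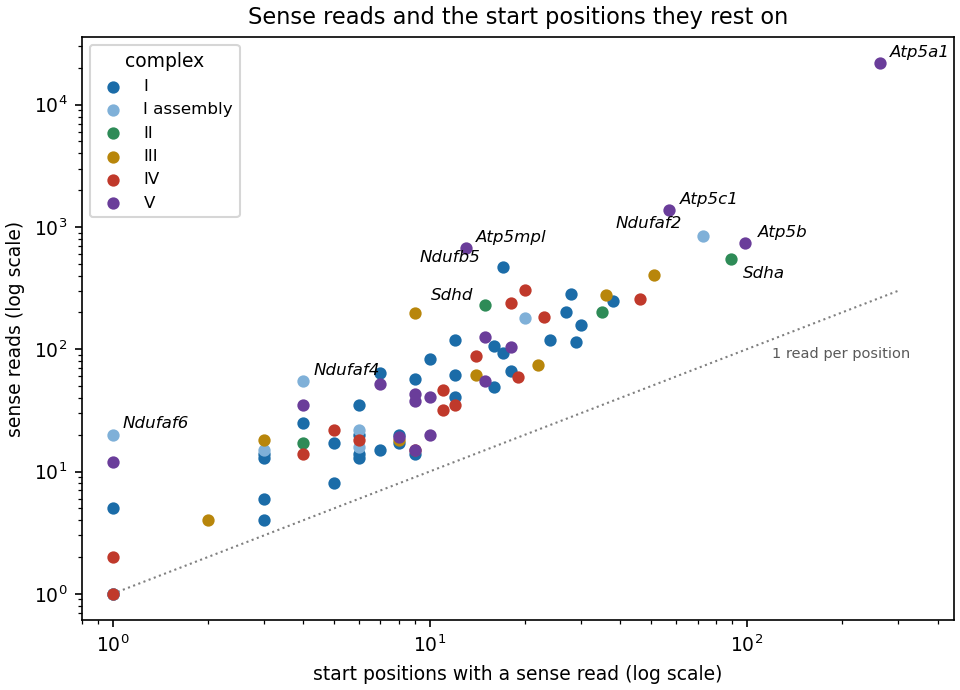
Sense reads against the number of start positions with a sense read (both log scales), 1 point per gene with a read, coloured by complex; the dotted line is 1 read per position. Atp5mpl, with 669 reads at 13 positions, lies far above the genes next to it on the horizontal axis, and Atp5a1 stands alone at 263 positions.

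Only annotated transcripts were searched, and the principal coding transcript held 92.81% of the members' sense reads, or 78.08% without Atp5a1, against 92.62% for all coding genes. Under 50% of the reads lay on it in 5 of the 40 members with at least 50 reads (12.5%), namely Atp5c1, Atp5g3, Atp5l, Ndufb5 and Ndufs7, against 12.7% of coding genes. Reads placed across exon-exon junctions were found in 52 of the 85 members with a read on the principal transcript. Without Atp5a1 they were 1239 of 8152 reads (15.2%), where 14.73% of windows do when each gene is weighted by its reads. For all coding genes it was 22.45% of reads, against 10.9% of windows weighted in the same way. By start position, 17.48% crossed a junction in the members and 13.74% in all coding genes, against 12.85% and 9.124% of windows without weights. Among single genes, 292 of 845 reads of Ndufaf2 and 137 of 247 of Ndufa6 crossed a junction, and 0 of 667 in Atp5mpl did. Introns outside annotated isoforms were not searched, so the amount of unspliced RNA was not measured. Matching also allowed 2 mismatches, so a read with only a few bases beyond a junction need not come from spliced RNA. How many of the junction reads came from spliced RNA was not tested.

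Coding sequence held 86.86% of the members' sense reads, but 60.61% without Atp5a1, against 79.15% for all coding genes. Counted by start position the shares were 72.3% for the members and 63.8% for coding genes, and coding sequence makes up 53.76% and 50.54% of the length. Of the 40 members with at least 50 reads, 25 had most of their reads in coding sequence, 10 downstream of it, 4 on noncoding isoforms and 1, Atp5c1, upstream. The 10 were Sdhc, Sdhd, Cox6a1, Cox6c, Cox7a2l, Cox7b, Ndufc1, Uqcr10, Uqcrb and Atp5d. By group the coding share ran from 93.09% in complex V and 90.39% in the assembly factors to 51.61% in complex II and 48.02% in complex IV. Without Atp5a1 complex V had 51.82%. By position the assembly factors were highest at 90.35%, and complex V had 78.61%.

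Antisense reads, from RNA of the other strand, were few in total and unevenly spread. The members had 1757 antisense reads, 5.167% of their reads (4.934 to 5.408), against 12.48% for all coding genes. By start position the members' share was 13.65%. Without Atp5a1, which had 48 antisense reads, the share was 14.07% of reads and 15.6% of positions. By group it ran from 1.43% in complex V and 2.266% in complex II to 23.17% in complex III and 24.11% in complex IV. Single genes set some of these values, since complex III had 2.104% without Uqcrc1 and complex V 8.649% without Atp5a1. In complex IV, Cox7b held 240 and Ndufa4 129 of the 418 antisense reads. By position the order differed, with 20.82% in complex I, 16.67% in III, 14.53% in IV and 10.03% in V. Of 44 members with at least 50 reads on both strands together, 4 (9.09%) had an antisense share above 50% with its whole interval, against 12.4% of coding genes. Uqcrc1 had 296 antisense reads against 74 sense reads, 80.0% (75.56 to 83.96), and 175 of the 296 began at 1 position. The 2 strands of Uqcrc1 were even in positions, with 22 each. Ndufb11, a membrane-arm subunit of complex I, had 76 against 14, and it overlaps Rbm10 on the other strand. Ndufa8 had 50 against 13, and Ndufab1, the mitochondrial acyl carrier protein, 43 against 17, overlapping Gm44986. A read was called antisense only where none of its best placements was sense to an annotated transcript. The antisense reads of Ndufb11 and Ndufab1 thus lay outside the annotated exons of Rbm10 and Gm44986. The call could not be made by position, since these 4 genes have 13 to 44 start positions on both strands together. Cox7b and Ndufa4 had many antisense reads without passing it, 240 (44.12%) and 129 (35.15%), and in Cox7b 194 of the 240 began at 1 position. By contrast 7 members with at least 50 sense reads had no antisense read, Ndufaf2 with 845 sense reads and Atp5mpl with 669 among them. Ndufa11, a membrane subunit of complex I, had 0 sense and 9 antisense reads.

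**Figure D5:**
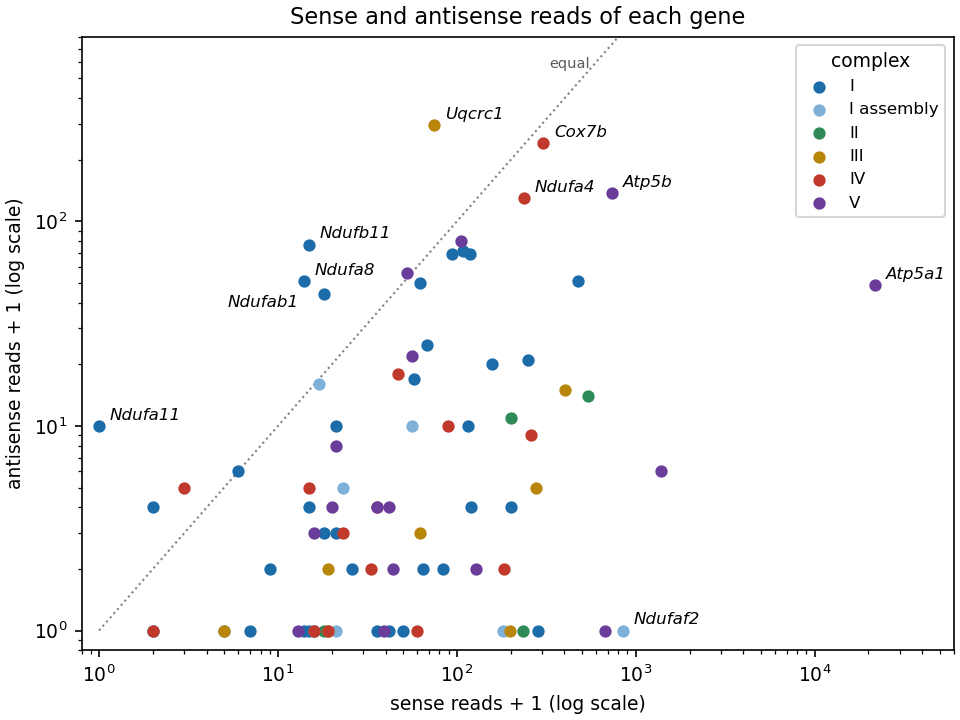
Antisense reads against sense reads of each gene with a read (both log scales, 1 added to each count), coloured by complex; the dotted line marks equal counts. Uqcrc1, Ndufb11, Ndufa8 and Ndufab1 lie above the line, and Atp5a1 lies far to the right with 48 antisense reads.

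Many of these genes have processed pseudogenes, and reads that matched several genes were not counted. Over 90% of windows could be assigned in 74 of the 93 members, and none had under 50%. Sense reads shared by a member and other genes numbered 56185, of which 45400 touched Atp5g1, and those shared with up to 4 other genes numbered 4673. In 17 members such reads outnumbered the gene's own, and in 11 of the 17 the main partner was a processed pseudogene. Besides Uqcrb, Atp5g1 had 19 reads of its own and 630 shared with up to 4 genes, Atp5h 20 and 477, Cox6c 88 and 424, Cox7b 304 and 475, and Cox7c 15 and 105. The main partner was a processed pseudogene in each of them except Atp5g1, where it was the coding gene Bloc1s3, with 334 of the 630 reads. The levels of these genes are therefore lower limits for their mRNA and the RNA of their partners together.

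Other genes of mitochondrial energy metabolism gave levels on both sides of the members. Cytochrome c (Cycs), which links complexes III and IV, had 28 sense reads. Cytochrome c1 (Cyc1), a complex III subunit that the symbol rule leaves out, had 21. Of 38 assembly factors outside the symbol rule, 12 had at least 50 sense reads and 5 had none, with a median RPKM of 0.2939. Coa5 and Coa7, both of cytochrome c oxidase assembly, led with 3433 and 1036 sense reads, and Acad9, which acts in complex I assembly, had 444. Of 13 citric acid cycle genes, 9 had at least 50 sense reads (median RPKM 0.9941), led by Dlst, a subunit of the 2-oxoglutarate dehydrogenase complex, with 2748. Of 16 glycolysis genes, 13 did (median RPKM 2.444), led by Eno1 with 2245, Pfkp with 1144 and Pkm with 1003. Among 15 regulators of respiratory chain genes and mitochondrial DNA 8 did (median RPKM 0.2776), with Yy1 at 781 sense reads and Tfam, which packages mitochondrial DNA, at 462. The mitochondrially encoded subunits were read mostly on the other strand. The mt-Nd genes of complex I had 237482 sense and 518973 antisense reads, the mt-Co genes 8032 and 167844, mt-Cytb 21013 and 106715, and the mt-Atp genes 913 and 23086.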

How the data were processed

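The counts were deposited by the authors as 1 table without a header, which lists every distinct read sequence once beside its number of reads, not scaled to depth. The build mm9 is named in the submitters' processing notes, but the table has no coordinates, and the aligner and read filters are not given in the sources used here. No label or header ties the table to a library, so it was treated as 1 pool with no test between groups. Reads of at least 26 bases lost their leading 6 bases and were matched by bwa 0.7.19 to the transcripts of GENCODE M21 (build GRCm38), allowing 2 mismatches and no gaps. Of 31529044 such reads, 36.06% fell to 1 gene and 10.69% to several. Reads are the reverse complement of the RNA. A sense read had its best sense placements on 1 gene, and antisense placements only on genes overlapping it on the other strand. Each read's region was that of its middle base, with coding sequence of any isoform first. RPKM was derived here from the deposited counts, and the principal transcript is the longest APPRIS principal coding one. Of 40000 simulated reads of the members, 90.5% returned to their gene and strand, 8.79% matched several genes, 0.527% fell to an overlapping gene and 0.1% to a wrong one. Intervals are from scipy 1.17.1.

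The members, lists and tests were chosen with earlier results of these data known. Genes named by rule were the 4 with most sense reads in each group, all at 0, those called antisense, the isoform sets and the 3 with most start positions. A gene that the rule takes is not reported here. Other genes named were chosen after their values were seen.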

Additional observations from a re-analysis of the deposited data

Results flagged for a closer look

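Ndufb1-ps carries a symbol of the same kind as the complex I genes but is annotated as a noncoding RNA from a shared promoter, so it was left out of the members. It had 4 sense reads, just above the limit of 3 counts used for a count of 0.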

How the results depend on the processing

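No paired analysis was possible because the counts of the table carry no replicate number or library. The values for all 93 genes were 32246 sense reads, 40 genes at 50 reads or more, a median RPKM of 0.6395, an antisense share of 5.167%, 4 genes called antisense, 7 genes at 0 and a coding share of 86.86%. Counting each distinct sequence once gave 7647 sequences, 18 genes, a median of 1.565 per kb and 1000000 sequences, an antisense share of 5.744%, 1 antisense call and a coding share of 86.39%. Counting each start position once gave 1556 positions, 6 genes, a median of 12.31 per kb and 1000000 positions, 13.65% and a coding share of 72.3%, with 0 antisense calls, which says nothing since the 4 genes called by reads have at most 44 positions. Allowing no mismatch gave 27567 sense reads, an antisense share of 4.669% and 1 antisense call, and reads of at least 36 bases gave 30925 sense reads. Requiring no other gene within 1 further mismatch gave 31328 sense reads and an antisense share of 3.99%. Counting all placements gave 88431 sense reads, a median of 1.156 and an antisense share of 2.493%. The 36-base reads alone gave 4639 sense reads, 9 genes at 50 or more, 6.434% antisense, 0 antisense calls and 12 genes at 0. The 40-base reads alone gave 26286, 2 antisense calls, 11 genes at 0 and a coding share of 86.25%. Leaving out genes that overlap another on the opposite strand gave 6629 sense reads, 25 genes, 14.87% antisense and 2 antisense calls. Atp5a1 is among the genes left out there, and without Atp5a1 alone the antisense share was 14.07%. A minimum of 200 reads left 17 genes and 1 antisense call, and the length of the longest coding transcript gave a median of 1.129. The median RPKM of complex I (0.6024) became 1.437 by sequence, 10.18 by position and 1.06 with all placements, and that of its assembly factors (0.4803) 5.838 by position. That of complex II (3.063) became 25.04 by position, 3.57 with all placements and 3.172 per assignable window, and that of complex III (1.94) 17.01, 1.944 and 2.201. Complex IV (0.7499) gave 1.738 by sequence, 15.26 by position and 1.122 with all placements, and complex V (0.6322) 1.294, 12.55 and 1.847. The next 3 alternatives were chosen after seeing the data. Leaving out Atp5a1 gave 10441 sense reads, 14.07% antisense and a coding share of 60.61%. Reads on the principal coding transcript alone gave 29927 sense reads and 4.252% antisense. Adding reads that match up to 5 genes gave 37076 sense reads, 5.748% antisense and medians of 1.065 for all members, 1.038 for complex I, 3.073 for II, 1.944 for III, 1.122 for IV and 1.646 for V. Complexes II and III kept the highest 2 medians by position and with all placements. Of the 43 named genes, 27 moved outside their counting interval when sequences were counted once and 36 when positions were. Values by sequence or position are per 1000000 sequences or positions, while those intervals are per 1000000 reads. The 2 counts of moved genes therefore include the change of unit and do not measure an effect of processing alone. A level under 50 reads is known only roughly, and 46 of the members with reads lie there. Beyond the change of unit in these 2 ways of counting, the cause of the shifts was not tested.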
